A study of Mus musculus with 2 samples.

Results

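Dense clusters of distal open chromatin were described in gastrocnemius, the large calf muscle, by DNase-seq, in which DNase I cuts accessible DNA in isolated nuclei and the cut ends are sequenced. The tissue came from male F1 hybrids of the B6CASTF1/J strain, 10 days old and with no treatment or engineered allele named. The only group had 2 libraries, biological replicates 1 and 2 of technical replicate 1, whose labels carry the same donor record and name 3 males. The labels do not say whether animals were pooled, so a difference between the libraries measures only the spread between these samples, which may be technical. A distal site was a replicate 1 peak on chromosomes 1 to 19 that overlapped a replicate 2 peak and had its midpoint over 5 kb from every GENCODE M21 transcript start. Sites with midpoints at most 12500 bp apart were chained, and a chain of at least 8 sites was called a dense cluster. The rule gave 179 clusters among 26541 chains. They hold 1785 of the 44549 shared distal sites, or 4.01%. Of the other chains, 9445 had 2 to 7 sites and 16917 were single sites. The clusters were thus chosen by the positions of peaks in both libraries, and ranked by the summed peak value. Membership, number of sites and rank are therefore given as descriptions and support nothing.

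Distal DNase I sites are stretches where nucleosomes are displaced, usually by bound transcription factors, and many of them are enhancers. Enhancers of genes that set cell identity or respond to signals often lie side by side over long stretches, and such groups have been described as stretch enhancers or super-enhancers, mostly from histone or cofactor marks that were not measured here. In skeletal muscle the factors known to act at distal elements include MyoD-family proteins at E-boxes, MEF2, TEAD, NFI and AP-1 proteins, and CTCF marks insulators and loop anchors. In a bulk tissue, a site open in few nuclei and a site weakly open in many cannot be told apart, and gastrocnemius holds myofibres together with fibroblast, tendon, vessel, nerve and immune cells.

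The sequence at the most open site of 6 of the 12 clusters with the highest summed value is shown because the later comparison turns on base composition and on motif matches. Each is 150 bp around the midpoint of the peak, 5′ to 3′ on the plus strand, read from the RefSeq copy of GRCm38, the assembly of mm10. Capitals mark a searched motif with at least 50% of its bases under a footprint in both libraries. A footprint is a short stretch protected from cleavage inside open chromatin.
Lrrc74a cluster, chr12:86801286-86801435, plus strand: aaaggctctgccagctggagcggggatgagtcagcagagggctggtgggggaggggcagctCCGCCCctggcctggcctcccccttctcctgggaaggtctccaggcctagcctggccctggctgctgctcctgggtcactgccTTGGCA
Gse1 cluster, chr8:120265666-120265815, plus strand: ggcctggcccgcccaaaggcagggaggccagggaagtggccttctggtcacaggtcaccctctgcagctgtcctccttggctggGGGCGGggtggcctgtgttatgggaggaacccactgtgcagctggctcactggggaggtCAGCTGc
Morn1 cluster, chr4:155173586-155173735, plus strand: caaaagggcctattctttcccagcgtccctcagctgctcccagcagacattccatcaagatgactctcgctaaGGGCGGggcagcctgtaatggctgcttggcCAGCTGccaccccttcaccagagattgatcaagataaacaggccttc
Tex44 cluster, chr1:86434456-86434605, plus strand: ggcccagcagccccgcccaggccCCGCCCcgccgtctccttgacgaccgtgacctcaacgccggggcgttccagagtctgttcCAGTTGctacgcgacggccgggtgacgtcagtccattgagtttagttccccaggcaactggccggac
Krt78 cluster, chr15:101977486-101977635, plus strand: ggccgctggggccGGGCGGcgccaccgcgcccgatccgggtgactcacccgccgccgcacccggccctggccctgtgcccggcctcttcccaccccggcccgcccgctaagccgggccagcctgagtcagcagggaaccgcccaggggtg
Foxo6 cluster, chr4:120249006-120249155, plus strand: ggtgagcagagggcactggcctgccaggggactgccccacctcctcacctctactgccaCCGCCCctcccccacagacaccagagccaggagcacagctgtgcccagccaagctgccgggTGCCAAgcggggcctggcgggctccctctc

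The capitals in all 6 lines include GGGCGG or its reverse complement, the core bound by SP and KLF factors. The Gse1 and Morn1 lines also have the E-box CAGCTG, the form preferred by MyoD and myogenin, and the Lrrc74a and Foxo6 lines the NFI motif TTGGCA or its complement. The lines are a selection, so their shared motif is no count over clusters. A match is a description of letters and not a bound site. The 12 highest sites held 2 to 22 CpG dinucleotides in 150 bp, with 22 in the Ptma cluster, 18 in the Krt78 cluster and 15 in the Tex44 cluster, against 2 in the Lrrc74a and first Gse1 clusters.

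Values are the signal that the authors deposited for each peak, scaled by them to library depth. In each library 100% of them were whole multiples of one step, within 0.05 of a step, which was 0.00544 in replicate 1 and 0.00587 in replicate 2. With 1 tag per step, the median cluster site rested on 192 tags in replicate 1 and 252 in replicate 2, and the lowest on 9 and 11. The wider peak sets held 123255 and 150088 peaks. As a check of the tissue, all 10 fast myofibre markers had an open promoter in both libraries, as did 2 of 5 slow myofibre markers, 5 of 17 macrophage markers, 9 of 14 neuronal genes and 2 of 14 hepatocyte genes. Among all autosomal protein-coding genes 67.3% had one, so the neuronal count was near this background. The slow myofibre and macrophage counts were below it, although these cells belong to the tissue, so the check separates tissues only in part.

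The clusters had 8 to 24 sites, with a median of 9. Exactly 8 sites were found in 81 clusters, 135 had 10 or fewer, 14 had 15 or more and 4 had 20 or more. Spans were 5.98 to 75.1 kb, with a median of 28.3 kb, and the median distance between neighbouring midpoints was 439 to 8027 bp, with a median of 2205 bp. The summed value was 4.77 to 74.5 in replicate 1, with a median of 13.97, and 3.83 to 103 in replicate 2, with a median of 17.9. Just inside the threshold, the 81 chains of 8 sites had median sums of 11.1 and 14.2 and a median span of 26.2 kb. Just outside it, the 132 chains of 7 sites had median sums of 9.66 and 11.9 and a median span of 21.7 kb.

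Most clusters had a leading site. The highest site gave 7.12 to 59.4% of the sum of its cluster, with a median of 25.5%, and a median of 3 sites made up 50% of the sum. The highest site was 1.18 to 16.3 times the median site of its cluster, with a median of 3.18 times. The sum followed the number of sites only in part, with a Spearman's rho of 0.399 over the 179 clusters, and the median value of a site had a rho of 0.0349 with the number of sites. Both are descriptions across clusters of the same 2 libraries.

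The libraries ordered the clusters alike. The summed values had a Spearman's rho of 0.913 over the 179 clusters, which share both libraries, and 19 of the 20 clusters with the highest mean sum were among the 20 highest of replicate 1 and 18 among those of replicate 2. Replicate 2 was higher in 159 of 179 clusters, with a ratio of replicate 2 to replicate 1 of 0.536 to 2.14 and a median of 1.36. These sums repeat some values, because each site took its highest overlapping replicate 2 peak and 123 of the 1785 sites, in 48 clusters, shared that peak with another site of the cluster. In replicate 1, 62 sites overlapped another site of their cluster. With each replicate 2 peak counted once in a cluster, replicate 2 was higher in 154 clusters, the ratio was 0.496 to 2.14 and its median 1.31. Of the 20 highest clusters, the replicate 2 sum was then lower by over 5% at Wnt7b, with 75.7, at Morn1, with 68.9, and at Ppara, with 31.8. The median ratio per site was 1.33 in clusters and 1.18 at other shared distal sites, so sites of both kinds were mostly higher in replicate 2. The ratio was highest, at 2.14, in the cluster of Hhat, which encodes the acyltransferase of Hedgehog ligands, with sums of 11.8 and 25.3. It was 2.00, or 1.74 with each peak counted once, in a cluster inside Thsd4 and 1.99 in the cluster near Col6a3, a chain of the collagen VI of the muscle matrix. It was lowest, at 0.536, in the cluster near Vmn1r2, a vomeronasal receptor gene, with sums of 7.14 and 3.83, and next lowest near Rplp1 at 0.831 and near Ifnlr1 at 0.838.

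**Figure D1:**
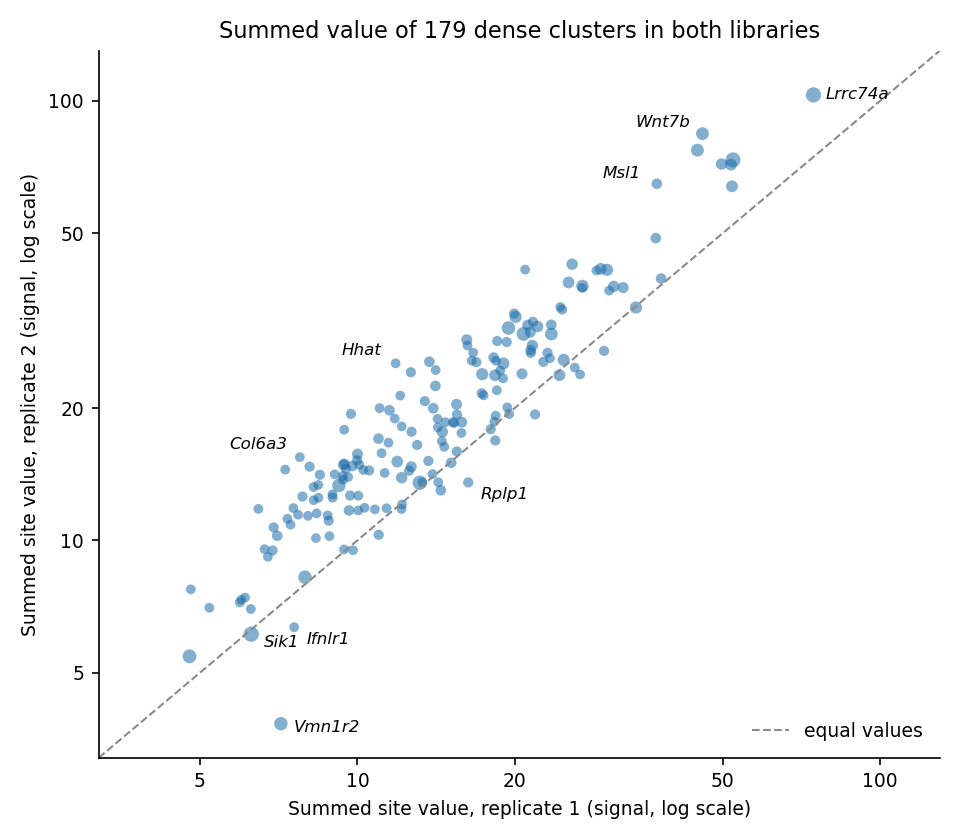
Summed site value of each of the 179 dense clusters in replicate 1 (x axis) and replicate 2 (y axis), both in deposited signal units on log axes, with point size growing with the number of sites and a dashed line of equal values. Most points (159) lie above the line, the Lrrc74a cluster is highest in both libraries, and the Vmn1r2 cluster lies farthest below the line.

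The cluster with the highest sum lay on chromosome 12, from 86767941 to 86837040 in mm10, in intergenic sequence. Lrrc74a was the nearest coding gene of most of its sites and Irf2bpl, which encodes a transcriptional regulator, that of the others. It had 24 sites over 69.1 kb and summed values of 74.5 in replicate 1 and 103 in replicate 2. Its highest site lay 33.3 kb from the first one, with 12.7 in replicate 1 and 19.9 in replicate 2, and it held 18.3% of the sum. The next sites were 8.97 and 7.05 at 4.22 kb, 4.80 and 7.63 at 56.1 kb, and 6.47 and 5.72 at 30.9 kb. Wide gaps followed the sites at 11.7 and 36.4 kb, and 12 of the 24 sites belonged to the highest decile of all shared distal sites. No promoter peak was found at Lrrc74a in either library.

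Clusters near genes of secreted signals and their inhibitors came next. The cluster nearest to Wnt7b, a Wnt ligand, lay 16.5 kb from the start of the gene on chromosome 15 and had 16 sites in 35.9 kb, with sums of 45.7 and 84.2. Its last site had 11.1 in replicate 1 and 25.5 in replicate 2, and lies 125 bp from a RefSeq start of the noncoding gene D130051D11Rik, which the GENCODE starts used by the rule do not include. Wnt7b itself had a promoter peak of 1.05 in replicate 1 and none in replicate 2. A second cluster further along the chromosome was nearest to Ppara, the nuclear receptor of fatty acid oxidation, with 12 sites, sums of 30.9 and 37.8, and a promoter peak of 7.01 and 11.5 at Ppara. The cluster near Socs3, an inhibitor of cytokine signalling through JAK and STAT proteins, had 12 sites in 32.9 kb with sums of 49.7 and 71.8. Its highest site, 13.3 in replicate 1 and 20.9 in replicate 2, was also the one nearest to the gene, 5616 bp from its start and so just past the distance the rule asks for. In the Morn1 cluster, 16 sites in 55.9 kb summed to 44.7 and 77.2, and its highest site was nearest to Ski, whose product represses TGF-beta signalling and increases muscle mass when overexpressed in mice.

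The Rxra cluster, near the retinoid X receptor gene, had 11 sites with sums of 32.2 and 37.6. The Rara cluster, near a retinoic acid receptor gene, had 8 sites with sums of 30.3 and 37.0. The 10 sites of the Msl1 cluster, in only 7.40 kb, lay between Msl1, the scaffold of a histone acetyltransferase complex, and Nr1d1, the circadian repressor REV-ERB alpha. Their sums were 37.4 and 64.8, and 3 sites stood out, with 8.08 and 16.3, 9.64 and 12.3, and 6.18 and 12.98.

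Both clusters nearest to Gse1, which encodes a coiled-coil protein found with histone deacetylases, lay in its introns on chromosome 8. The first had 23 sites over 75.1 kb, the widest span of all, with sums of 52.3 and 73.4, and no site above 6.67 in replicate 1 or 11.2 in replicate 2. The second had 14 sites over 65.9 kb with sums of 30.0 and 41.3. Within 100 kb of each other they made one of 15 such pairs, to which 30 of the 179 clusters belonged. The pairs with the highest joint mean sum were Ptma with Tex44, at 101, Wnt7b with Ppara, at 99.3, and the pair at Gse1, at 98.5. In the Ptma cluster, near the gene of the acidic chromatin protein prothymosin alpha, 13 sites summed to 52.1 and 63.9, and the highest had 13.3 and 20.04. In the Tex44 cluster, 10 sites summed to 37.2 and 48.7, and the highest had 13.7 and 17.8. No promoter peak was found at Tex44 in either library, and the peak at Ptma had 8.81 and 17.98.

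Further clusters among the 20 highest were near Krt78 (10 sites, sums of 38.1 and 39.4), Foxo6 (13 sites, 29.2 and 41.5), Cstad (8 sites, 28.7 and 41.1), Hspg2 (12 sites, 25.7 and 42.5), Prr5 (14 sites, 34.1 and 33.9), Nfe2l3 (15 sites, 27.0 and 37.9) and Irf2bp2 (8 sites, 26.9 and 37.5). Their genes encode a keratin, a forkhead factor, a little-described protein, the basement membrane proteoglycan perlecan, a subunit of mTOR complex 2, a bZIP factor and a transcriptional corepressor. In the Cstad and Irf2bp2 clusters a single site made up 59.4% and 57.3% of the mean sum. That site had 17.3 in replicate 1 and 24.2 in replicate 2 in the Cstad cluster, and 16.8 and 20.1 in the Irf2bp2 cluster. The Nfe2l3 cluster lay 246926 bp from the nearest coding start, so the gene names the place, and whether it is a target was not tested. No promoter peak was found at Krt78.

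**Figure D2:**
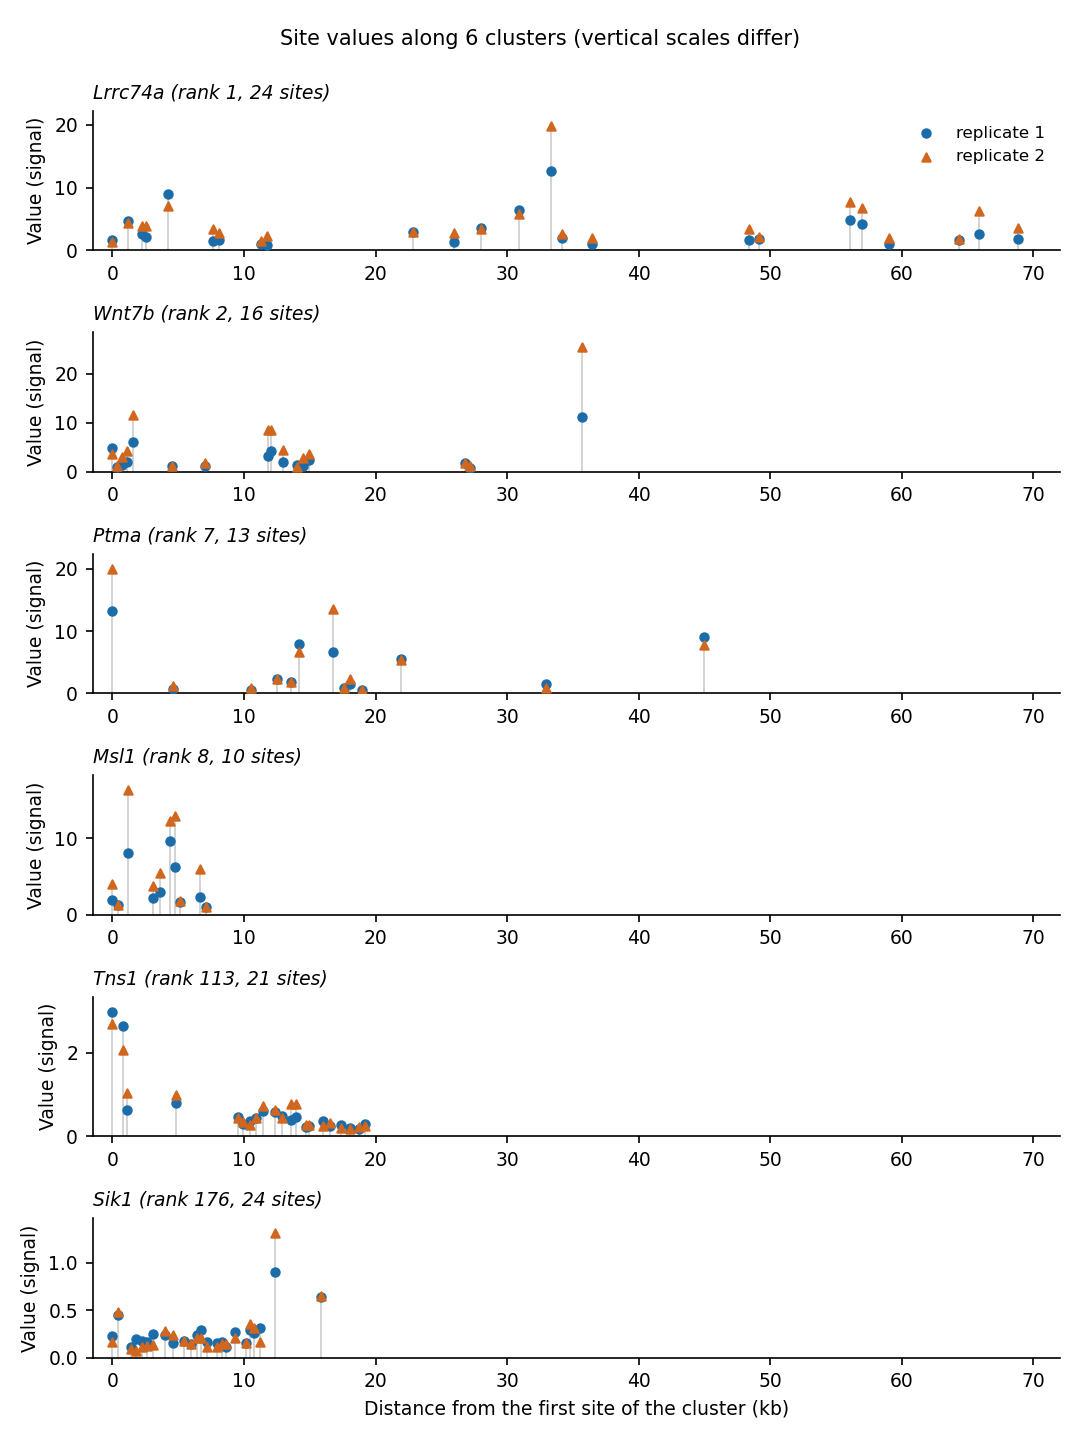
Value of every site (y axis, deposited signal, scale differing by panel) against its distance from the first site of the cluster (x axis, kb, same scale in all panels) in 6 clusters, with circles for replicate 1 and triangles for replicate 2. In the Lrrc74a, Wnt7b, Ptma and Msl1 clusters a few sites above 8 stand among many below 5, while the Sik1 cluster is a row of low sites that lie close together. The Tns1 cluster of 21 sites also has sites close together, 10 of them in the lowest decile of value and 1 in the highest.

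In some clusters the open bases covered most of the span, among them several with many low peaks. The Sik1 cluster, near the gene of a cAMP-induced kinase of skeletal muscle, had 24 sites in 16.6 kb, as many as the Lrrc74a cluster, but sums of only 6.26 and 6.12. Its sites had 0.114 to 0.903 in replicate 1 and 0.0763 to 1.31 in replicate 2. Positions below a false discovery rate of 0.05, called listed bases here, covered 86.4% of its span in replicate 1 and 54.4% in replicate 2. The shares were 76.5% and 86.2% in the Azin1 cluster, which had the most sites per kb (13 in 7.44 kb), 49.6% and 82.7% in the Tns1 cluster of 21 sites, and 50.03% and 41.0% in one of the clusters near Zfp36l2. High peaks could also stand in such a span. The Msl1 cluster, with a highest site of 8.08 and 16.3, had 61.4% and 64.2% listed, and the Actg1 cluster, with 9 sites and site medians of 1.57 and 1.83, had 77.0% and 40.4%. In all, 9 clusters had at least 50% of the span listed in either library and 4 had it in both, whereas 144 had less than 25% in both. Such a row of sites could be many sites or one open stretch split into many peaks, and these cannot be told apart from the peak positions.

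The Plec cluster was made of low peaks in a largely listed span and was the only one made almost wholly of exons. Of its 18 sites, all inside the gene of the cytolinker plectin, 17 were exonic, in 11.2 kb, with sums of 7.94 and 8.25 and a highest site of 0.484 in replicate 1 and 0.669 in replicate 2. Its replicate 2 sum was 4.89 with each replicate 2 peak counted once, so its ratio of replicate 2 to replicate 1 was then 0.616 and not above 1. Listed bases covered 53.7% and 72.6% of its span. The Vmn1r2 cluster, on chromosome 4 from 3058508 to 3089860, had 18 sites whose bases were soft-masked as repeats at a median of 46.1%, against a median of 0% over the 179 clusters. Its sites had medians of 0.169 and 0.153, and no promoter peak was found at Vmn1r2. Of the 95 cluster sites in the lowest decile of value, 73 came from 5 clusters: 21 from Sik1, 16 from Zfp36l2, 15 from Vmn1r2, 11 from Ptgis and 10 from Tns1. By contrast 165 of the 179 clusters had no site in the lowest decile, and 135 had at least 1 in the highest. With 8 or more sites per cluster, a high count of the latter kind is likely from the share of a decile alone. Among clusters with a wide span, the Notch2 cluster had 10 sites in 64.1 kb and the Ephb2 cluster 18 in 65.3 kb. The Flrt1 cluster had 19 sites in 71.7 kb, all inside Macrod1. The Hfe2 cluster, near the gene of the BMP coreceptor hemojuvelin, was the narrowest at 5.98 kb, with 9 sites and sums of 23.1 and 26.7.

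**Figure D3:**
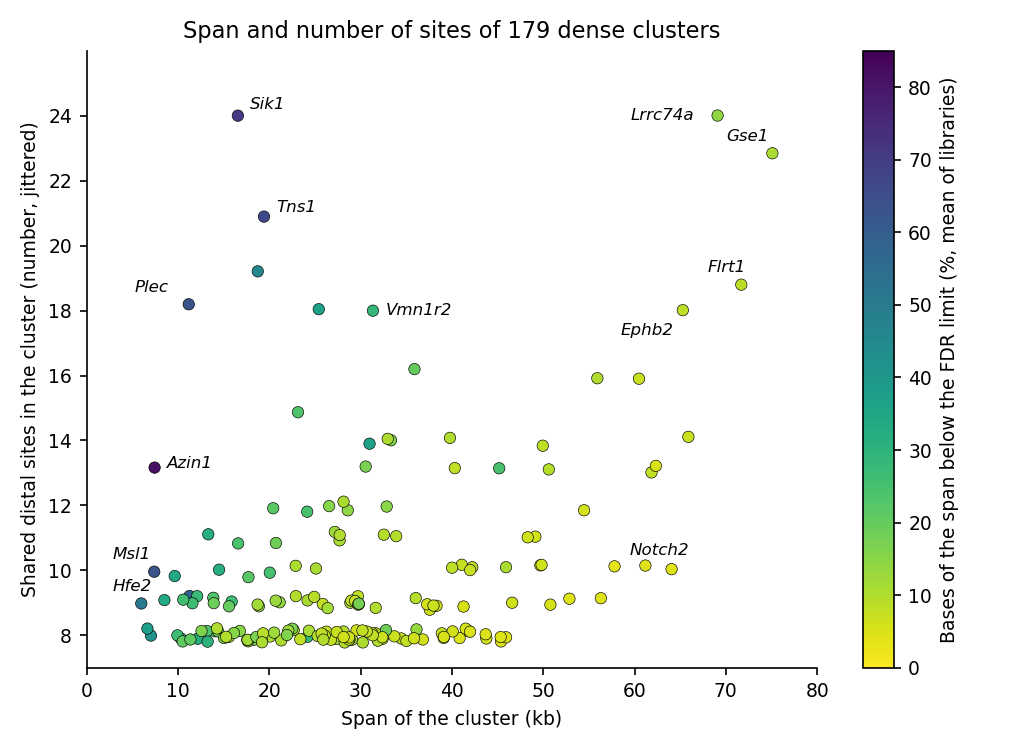
Number of sites (y axis, jittered) against span in kb (x axis) of each of the 179 clusters, coloured by the percentage of the span below the FDR limit of 0.05, as a mean of both libraries. Darker points at the upper left, such as Sik1, Tns1, Plec and Azin1, have many sites in a short and largely listed span, and the Lrrc74a and Gse1 clusters at the upper right have as many over 69.1 and 75.1 kb with 9.73 to 15.3% listed.

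Clusters were uneven over the chromosomes. Chromosomes 2 and 11 had 21 each, chromosome 4 had 17, chromosome 15 had 12 and chromosome 8 had 11, whereas chromosomes 3, 6 and 7 had 4 each. The share of a chromosome's shared distal sites that lay in clusters was lowest, at 1.54% (95% exact binomial interval 1.08 to 2.14%), on chromosome 3 and highest, at 6.72% (5.66 to 7.91%), on chromosome 15. These intervals cover counting error only and treat sites as independent, which neighbours in a cluster are not. Of the sites in clusters, 53.6% were intergenic, 42.3% intronic and 4.09% exonic, against 48.6%, 46.6% and 4.84% of the other shared distal sites. A whole cluster lay inside a single coding gene in 60 cases, and 75 clusters were wholly intergenic. All sites had the same nearest coding gene in 121 clusters, and 6 spans held a coding start.

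Sites in clusters had higher values than other shared distal sites. Their medians were 1.04 in replicate 1 and 1.48 in replicate 2, against 0.712 and 0.921 at the others, with quartiles of 0.691 to 1.85 and 0.904 to 2.58, against 0.468 to 1.28 and 0.552 to 1.63. The middle ranges overlapped in both libraries. The ratio of the median of mean values was 1.52, and single sites, the most isolated kind, had the lowest medians, 0.615 and 0.757. Peak value was not used to choose the clusters, but a peak must pass the authors' threshold in both libraries to count. The share of sites that lay in clusters was 0.988% in the second lowest decile of value and 7.86% in the highest, and 2.13% in the lowest. Among the 100 highest shared distal sites 17 were in clusters, and among the 1000 highest 116. In the stricter peak sets of both libraries were 62.7% of the sites in clusters and 55.1% of the others, beside 55.4% of all. Peaks of replicate 2 inside the spans overlapped a replicate 1 peak in 1812 of 2227 cases, or 81.4%, against 64.2% over chromosomes 1 to 19; the rule counts only chains of shared peaks, so this share is partly set by it.

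Over all values, sites in clusters held more footprints each and were wider, but within deciles of value they mostly held fewer. Sites in clusters had 2.48 footprints in replicate 1 and 2.64 in replicate 2, against 2.18 and 2.28 at other shared distal sites. Their median width was 180 bp, against 164 bp. Per kb of peak the clusters had 12.4 and 13.2 footprints, slightly fewer than the 12.8 and 13.4 of the other sites. In a fixed window of 150 bp around the midpoint they had slightly more, 2.08 and 2.19 against 2.00 and 2.09. At least 1 footprint was found in 89.1% and 90.3% of sites in clusters, against 88.8% and 89.8% of all shared distal sites. By decile of value, sites in clusters had fewer footprints in both libraries in the lowest and in deciles 3 to 8, more in one library and fewer in the other in deciles 2 and 9, and more in both in the highest. In the fifth decile, sites in clusters had 1.56 and 1.67 footprints and others 1.94 and 2.19, and in the highest decile 3.89 and 3.93 against 3.58 and 3.55. Median values were not alike in the end deciles, with 0.202 in clusters and 0.309 elsewhere in the lowest. In the highest decile they were 4.19 and 3.77, so the contrasts in both end deciles are not at equal value. The most footprints per site were found in the cluster near Btd, the biotinidase gene, with 4.38 and 4.50, and then near Irf2bp2, with 3.88 and 4, and Socs3, with 3.83 and 4. The Rara cluster had 4.25 and 3.38, and the Tpt1 cluster 3.63 and 4.13. The fewest were in the Zfp36l2 cluster of low sites, with 1.16 and 0.684, and in the Vmn1r2 cluster, with 1.17 and 0.944. Footprints come from the same reads as the peaks, so they are not an independent readout.

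**Figure D4:**
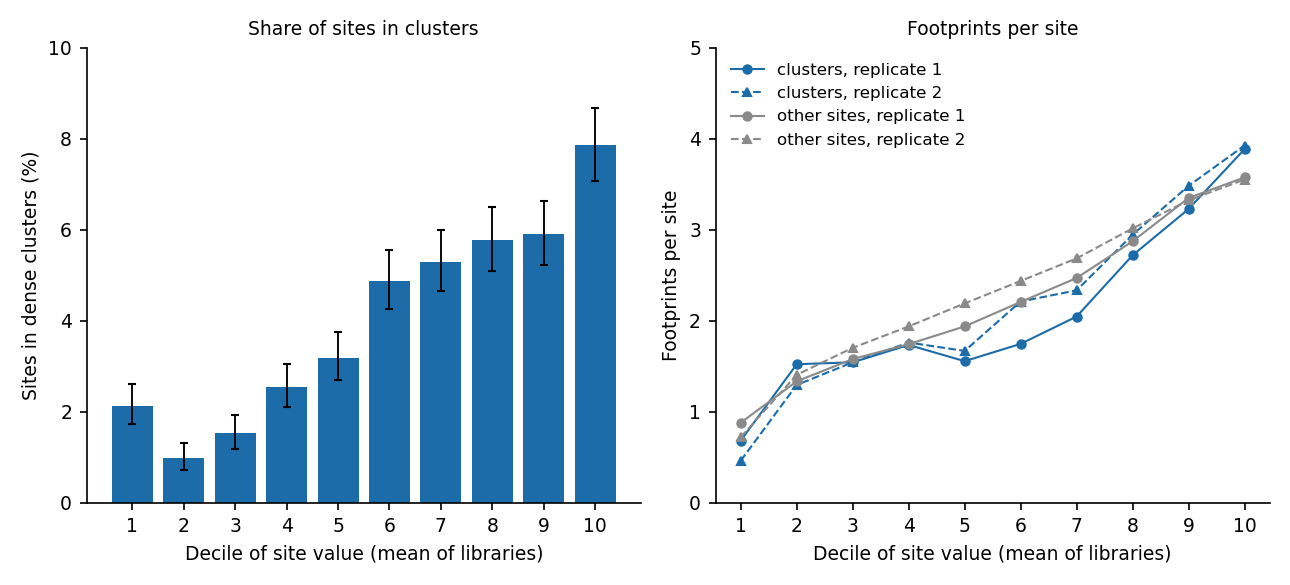
Left, percentage of shared distal sites that lie in dense clusters (y axis) by decile of mean site value (x axis), with 95% exact binomial intervals that cover counting error only; right, footprints per site (y axis) by the same deciles for sites in clusters and for other shared distal sites in each library. The share is 7.86% in the highest decile and 0.988% in the second, and cluster sites have fewer footprints than others in both libraries in the lowest decile and in deciles 3 to 8, and more in both in the highest.

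The base composition of sites in clusters differed from that of the others. The median GC content of the 150 bp around the midpoint was 57.3% in clusters and 53.3% at other shared distal sites, with a mean of 3.85 CpG against 2.98. Of the sites in clusters 56.9% belonged to the class of highest GC when all shared distal sites were cut into 3 equal classes. At least 8 CpG in 150 bp were found at 179 of 1785 sites in clusters, or 10.0%, against 4.91% of the other sites. For the highest site of each cluster the share was 31 of 179, or 17.3%, against 6.98% of the highest sites of chains of 2 to 7. The Ptma, Cstad, Krt78 and Ppara clusters had such a site as their highest, with 22, 21, 18 and 17 CpG.

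Distances to RefSeq starts, which the rule did not use, were also taken. A RefSeq transcript start lay within 500 bp of 54 sites in clusters, or 3.03%, against 2.20% of the other sites, and within 5 kb of 17.9%, against 9.95%. The highest site of 5 of the 179 clusters lay within 500 bp of such a start, in the Wnt7b, Fmod, Selenon, Rplp1 and Ifnlr1 clusters. When RefSeq starts were added to the starts a site must avoid, 113 clusters with 1118 sites were left, and 15 of the 20 with the highest sum overlapped one of them.

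Motif shares were compared in 150 bp around the midpoint, on both strands, for 28 motifs. The sequence did not enter the rule, but sites of a cluster share their neighbourhood, so no test over sites was made. GGGCGG, bound by SP and KLF factors, was found in 14.3% of sites in clusters and 7.48% of other shared distal sites, beside 7.75% of all. The ratio was smaller within classes of GC content: 3.66% against 2.79% in the lowest, 6.49% against 5.69% in the middle and 20.9% against 14.3% in the highest. Matches had 50% of their bases under a footprint of both libraries in 35.4% of cases in clusters and 30.5% elsewhere. GGGTGTG, a KLF element, was found in 5.15% against 3.99% (4.04% of all), and the EBF motif CCCNNGGGA in 5.55% against 4.40% (4.44% of all). Neither excess was found in every GC class. From the lowest class to the highest, GGGTGTG had 3.25% against 2.44%, 4.198% against 4.23% and 6.11% against 5.37%. The EBF motif had 1.63% against 2.49%, 4.58% against 4.35% and 6.995% against 6.47%, and so was less frequent in clusters in the lowest class.

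The muscle E-box was as frequent in clusters as elsewhere over all sites but less frequent in the classes of lowest and middle GC content, and the MEF2 motif was less frequent. The E-box CAGCTG had a share of 24.1% in clusters and 24.1% at other shared distal sites, beside 24.1% of all. At least 1 such site was held by 167 of 179 clusters. With 8 or more sites per cluster, a high count is likely at this share alone. Within GC classes its shares were 11.4% against 16.8% in the lowest, 20.4% against 25.8% in the middle and 29.2% against 29.9% in the highest. MEF2, searched by its AT-rich consensus, was rare in clusters, at 0.616% against 1.17% (1.15% of all), which is 11 sites. In that motif and in the homeodomain core TAATTA, at 0.896% against 1.52% (1.49% of all), the letters are AT-rich, and within GC classes MEF2 had 1.63% against 2.10%, 0.763% against 0.866% and 0.296% against 0.499%. GGAATG, bound by TEAD factors, had 10.3% against 10.4% (10.4% of all). The AP-1 site TGANTCA had 7.56% against 6.71% (6.74% of all), and the NFI motif TTGGCA 15.5% against 18.5% (18.3% of all). Of matches to the NFI motif, 39.7% in clusters lay under footprints of both libraries, against 33.4% elsewhere.

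CTCF, the insulator protein, was the motif with the largest deficit among those found in over 5% of other sites. Its consensus was found in 101 sites in clusters, or 5.66% (95% exact binomial interval 4.63 to 6.83%), against 8.92% of other shared distal sites, 9.98% of single sites and 8.79% of all. Within the 3 GC classes the shares were 8.94% against 13.1%, 6.49% against 7.92% and 4.43% against 5.55%, lower in clusters in each. Matches were under a footprint of both libraries in 86.1% of cases in clusters and 89.4% elsewhere. A CTCF match was found in 68 of the 179 clusters. This count depends on the number of sites per cluster and was not set beside an expected count.

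**Figure D5:**
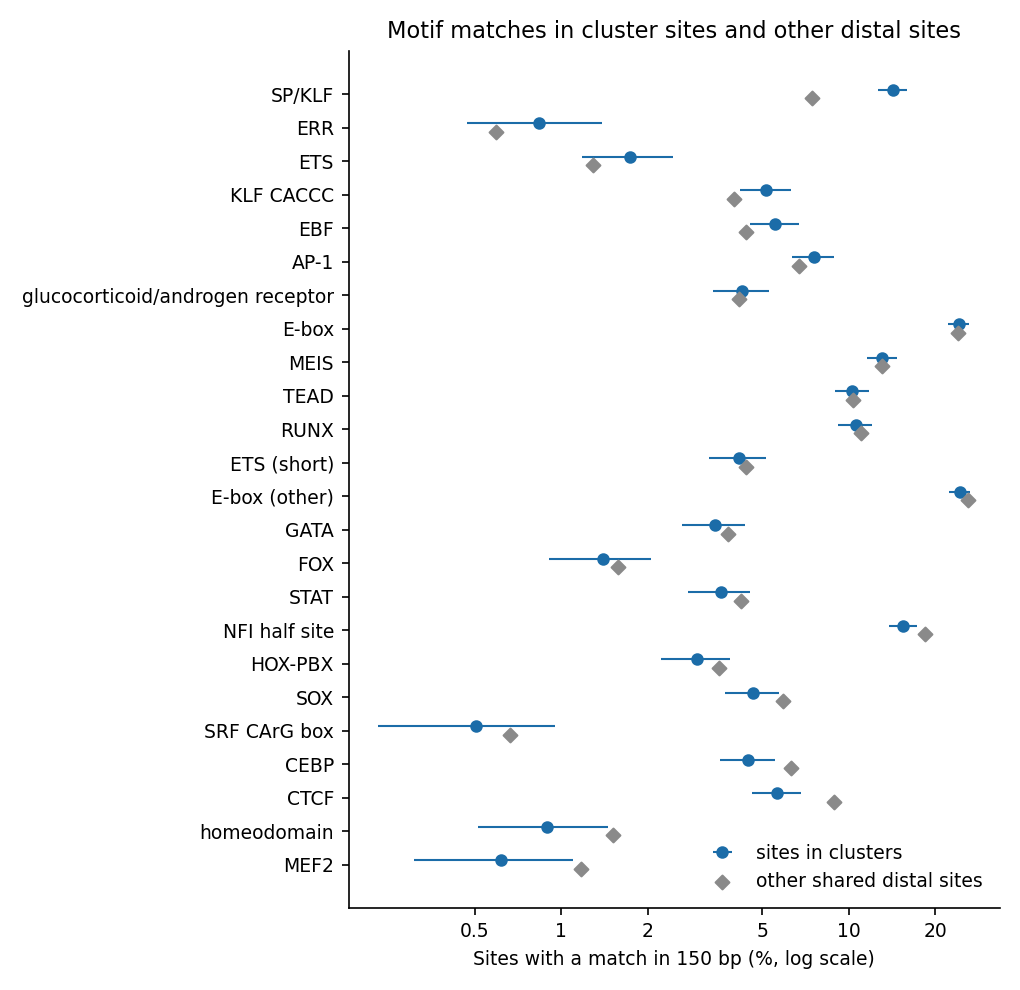
Percentage of sites with a match in 150 bp (x axis, log scale) for 24 of the 28 motifs, each found in at least 0.5% of other shared distal sites (y axis, ordered by the ratio), with circles for sites in clusters and their 95% exact binomial intervals, which cover counting error only, and diamonds for other shared distal sites. SP/KLF at the top has 14.3% against 7.48%, the E-box CAGCTG 24.1% in both, and CTCF near the bottom 5.66% against 8.92%.

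The 179 clusters had 171 nearest coding genes. Of these, 150 or 87.7% had an open promoter in both libraries, meaning a peak within 500 bp of a coding transcript start. The share was 67.3% of all 20698 autosomal protein-coding genes and 78.3% of the 10038 that were nearest to any shared distal site. Where open, the promoters had medians of 4.65 and 7.09, against 4.79 and 6.66 over all open promoters, close to each other in both libraries. Among the genes without a promoter peak in both libraries were Lrrc74a, Wnt7b, Tex44 and Krt78 of the 20 highest clusters, and Hfe2, Flrt1 and Vmn1r2. In these and in all other clusters the nearest coding gene is a label of position, and no link of a site to a gene was tested.

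Of the 21 gene lists of muscle and its cell types, 573 genes were autosomal and coding, and 26 of them, or 4.54%, were the nearest gene of a cluster, against 0.826% of all coding genes. Listed genes also had more shared distal sites nearest to them, with a median of 4 against 0, which was not taken into account in these shares. Growth signalling held 8 of 71: Irs2, the adaptor of insulin and IGF receptors (sums of 9.69 and 12.7), Acvr1, a BMP receptor (13.5 and 20.7), Smad7, an inhibitor of TGF-beta signalling (11.1 and 15.8), Tgfb2, its ligand (4.80 and 7.74), Fgf18 (10.3 and 14.5), Wnt4 (10.3 and 11.9), Wnt9a (13.9 and 14.2) and Notch2 (9.77 and 14.8). All 8 had an open promoter in both libraries, from 3.13 to 9.64 in replicate 1 and from 4.06 to 16.2 in replicate 2. The highest, at Notch2, had 9.64 and 16.2.

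Matrix genes held 6 of 52: Hspg2 (sums of 25.7 and 42.5), Col6a2 (13.7 and 25.5), Lama5 (12.2 and 18.2), Col6a3 (7.76 and 15.5), Col5a1 (8.42 and 12.5009) and Eln (7.35 and 11.2). They encode basement membrane perlecan and a laminin chain, fibrillar and collagen VI chains, and elastin. The Hspg2 and Lama5 clusters lay inside their genes and the Col6a3 cluster 89.4 kb away. The perlecan cluster had its 2 highest sites next to each other at its start, with 3.13 and 4.48 in replicate 1 and 7.50 and 8.18 in replicate 2. Promoters of all 6 were open, with the lowest value at Lama5, 1.65 and 2.05, and the highest at Col6a2 in replicate 1, 12.8, and at Hspg2 in replicate 2, 17.4.

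Genes of connective tissue cells were also among them. The tendon list held Fmod, fibromodulin (18.995 and 23.4), and Thbs4, thrombospondin 4 (14.7 and 18.6), of 15, with low promoter values of 0.865 and 1.85 at Fmod and 0.973 and 1.26 at Thbs4. The fibroblast list held Col1a1 of 34, the main chain of collagen I, whose 11 sites lay 52.9 kb away with sums of 16.2 and 28.6. The fibre type list held 3 of 32, all transcription factors: Nfix, which drives the fetal switch of muscle genes in mice (19.9 and 32.8), Nfib (10.97 and 17.04) and Nfatc2, a calcineurin target (10.8 and 11.8). Single entries came from fuel use (Ppara), the costamere (Plec), macrophages (Runx1, 9.44 and 17.9) and neurons (Rbfox3, 15.5 and 19.3, with a promoter of 1.03 and 0.734). The immediate early list held Zfp36l1 (7.85 and 12.6) and Zfp36l2, both of which encode proteins that speed mRNA decay. The clusters near Zfp36l2 were unlike each other, one with 8 sites summing to 18.5 and 21.96 and the other with 19 sites summing to 4.77 and 5.45.

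None of 14 myogenic factors, 67 sarcomere, 23 triad, 17 neuromuscular junction, 18 satellite cell, 29 endothelial, 18 pericyte, 51 limb patterning, 14 Schwann cell, 11 adipocyte or 14 hepatocyte genes was the nearest gene of a cluster. Beside the 0.826% of all coding genes, a count of 0 in lists of this size is near the background and says little about their genes. The sarcomere genes had a median of 1 shared distal site nearest to them and the myogenic factors 5, with a highest of 15 at Mef2c, against 11.5 for the fibre type list. Which cells of the tissue the sites are open in was not tested.

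RefSeq annotates 1010 enhancers on chromosomes 1 to 19, of which 617 are elements of the VISTA collection, assayed for activity in transgenic mouse embryos. They were not used by the rule. A RefSeq enhancer held 51 sites in clusters, or 2.86%, against 339 of the other shared distal sites, or 0.793%, and sites of one element share it. Such an element lay in the span of 21 clusters and held a site in 17 of them. Spans of like length outside clusters were not counted for comparison. Element mm1295 held 4 sites of the Irf2bp2 cluster with sums of 21.4 and 29.0, mm1493 held 5 sites of the Sorl1 cluster with 15.7 and 20.9, and mm1444 held 3 sites of the Lrrc74a cluster with 9.95 and 16.4. In the Fmod cluster mm1445 held 4 sites with 7.91 and 13.04, and in the Col1a1 cluster mm568 held 4 with 5.07 and 11.1. The elements of this collection were chosen by their makers so the shares describe overlap only, and in which embryonic tissue each element was active was not analysed here.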

How the data were processed

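DNase-seq libraries of 1 group (n = 2) were analysed. Peaks, footprints and per-position values were made by the authors from the filtered alignments of each library to mm10, with no pooling, per the sample notes; aligner and callers are not given in these sources. Column 7 of the deposited peak files is a signal scaled to depth by the authors. The deposited per-position files give an FDR, a p-value type of number, and list only positions under 0.05. The deposited footprints carry the value 0.01, also of p-value type, on every line, so only positions were used. Whether reads of CAST alleles mapped less often was not analysed here. Overlap meant at least 1 bp, and a site's replicate 2 value was its highest overlapping peak. Each site took the nearest GENCODE M21 coding gene, and a cluster took the gene of most of its sites. Members, gene lists and motifs were chosen with earlier results of these data known. Named are the nearest genes of the 20 clusters with the highest sum, of the 5 with the most sites, the widest, the most sites per kb, the highest single site and the most footprints per site, of the 3 highest and 3 lowest library ratios, and of every cluster whose gene is on a list; Ptgis, Selenon, Sorl1 and Actg1 were named after their values were seen. Some items that these rules cover are not reported here. Intervals are exact binomial (95%). No test was made. Chaining and overlap were checked on simulated peaks. Python 3.11.15, numpy 2.4.6, pandas 2.3.3, scipy 1.17.1 and matplotlib 3.10.9 were used.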

Additional observations from a re-analysis of the deposited data

How the results depend on the processing

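The number of clusters and of their sites depended on the definition. Against 179 clusters with 1785 sites, a gap of 10 kb gave 117 with 1178, at least 6 sites gave 521 with 3969, and at least 10 gave 61 with 804. A distance of 2.5 kb from starts gave 299 with 2997, one of 10 kb gave 112 with 1113, and coding starts alone gave 365 with 3761. Stricter peak sets gave 39 with 395, overlapping 12 of the 20 highest. With coding starts alone all 20 were overlapped, but 9 of them by one of the 20 highest of that setting. RefSeq starts, added after the data were seen as were the settings without pseudogene starts and with replicate 2 peaks summed or counted once, gave 113 with 1118. Peaks of a single library gave 394 to 882 clusters with 4452 to 9405 sites. Ranked per kb of span, 9 of the 20 highest clusters stayed among the 20; by the other orders tried 18 to 20 did. The ratio of median values (1.52) was 1.81 against single sites, and 1.47 to 1.61 in 1 library. The ratio of footprints per site (1.15) was 1.04 within 150 bp of the midpoint. In all, 26 settings of these results, some of them given above, stayed within a limit that was set separately for each kind of result. Among them a gap of 15 kb gave 231 clusters with 2348 sites. Counts and orders could not reverse. The ratios of values, of footprints per site and of the SP/KLF and CTCF shares kept their direction in the settings tried. Footprints per kb of peak and within most deciles of value, described above, went the other way. No paired analysis was possible because there is a single group. With 2 libraries and tags that can be PCR copies, only the spread between these samples is known.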
